A study of Mus musculus with 11 samples.

Results

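The 9 regulatory T cell genes Foxp3, Ikzf2, Il2ra, Ctla4, Icos, Tnfrsf18, Tnfrsf4, Il10 and Lrrc32 were followed in renal CD4+ T cells, of which 11 bulk RNA libraries had been sequenced. They were taken by symbol from a table of 35814 gene symbols, and each was read both as CPM (estimated counts scaled to the normalized library size) and relative to the summed counts of the T cell receptor constant regions Trac, Trbc1 and Trbc2 (TCR counts). All 9 were in the table, and all 9 passed the filter on low counts in every comparison. On the CPM scale all 9 were lower in CD4IKK1Δ mice than in CD4NIKΔ mice (18.5% of all genes were called lower), and 6 rose in CD4NIKΔ mice against CD4cre mice (10.4% of all genes were called higher), whereas scaling to the TCR counts turned most of these differences, a scaling that also moved the median of all genes in the same direction.

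Regulatory T cells (Treg) are CD4+ T cells that restrain other immune cells and promote tissue repair, and after ischemic kidney injury they are known to limit inflammation. Their lineage is set by the transcription factor Foxp3, which is stabilised by Helios, the product of Ikzf2. Treg depend on IL-2 taken up through CD25, the product of Il2ra, and carry the inhibitory receptor CTLA-4, the costimulatory receptor ICOS and the TNF receptor family members GITR (Tnfrsf18) and OX40 (Tnfrsf4), which signal to NF-κB. IL-10 (Il10) is a suppressive cytokine, and GARP (Lrrc32) holds latent TGF-β on the cell surface. Apart from Foxp3, these genes are also used by other activated T cells, so that their RNA alone does not count Treg.

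CD4cre mice (n = 3, labelled as wild type) carried a Cre transgene driven by the CD4 promoter, CD4IKK1Δ mice (n = 5, labelled IKK1 knockout) had floxed Chuk alleles in addition, and CD4NIKΔ mice (n = 3, labelled NIK knockout) had floxed Map3k14 alleles. Chuk encodes the kinase IKK1 and Map3k14 the kinase NIK, which act together in the noncanonical branch of NF-κB activation. All mice were males on the C57BL/6 background, 8 to 12 weeks old, and all underwent 45 min of bilateral clamping of the renal pedicles (IRI) and were killed on day 2, so that no uninjured kidney was included. A Cre under the CD4 promoter is active from T cell development on and is not specific to Treg. Each library came from 1 mouse, and replicates are given below in the order of their numbers. The question was how the labelled knockout of either kinase relates to the Treg genes of the injured kidney. In bulk RNA, fewer Treg and less RNA per Treg cannot be told apart.

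The libraries held between 15751632 and 25737046 estimated counts, so that 3 counts, used as the floor, corresponded to between 0.115 and 0.212 CPM. This floor covers counting error only, since the cDNA was amplified and molecules were not tagged. TCR counts differed far more than depth. They were 35820, 22741 and 12558 in CD4cre mice, 41, 868, 11413, 5277 and 5644 in CD4IKK1Δ mice, and 60124, 111648 and 90324 in CD4NIKΔ mice. Replicates 1 and 2 labelled CD4IKK1Δ thus had hardly any TCR transcripts. The summed level of 8 T cell markers ran from 631 to 1080 CPM in CD4cre, from 8.41 to 489 CPM in CD4IKK1Δ and from 3620 to 4400 CPM in CD4NIKΔ libraries, and 2 of these markers, Cd3g and Cd247, were at or under the floor in 2 libraries each. Markers of other cells moved as well. The 4 neuronal markers Snap25, Syt1, Stmn2 and Rbfox3 were above the floor in all 11 libraries and summed to between 1170 and 1340, between 1460 and 1710, and between 397 and 777 CPM in the same order of groups. The sums of 8 myeloid markers ran from 187 to 536, from 43.1 to 58.7 and from 245 to 444 CPM, with S100a9 at or under the floor in 10 libraries and Itgam in 8. Lyz2 (means of 190, 7.93 and 258 CPM), Fcgr3 (66.3, 10.8 and 46.7 CPM) and Csf1r (33.6, 11.7 and 20.6 CPM) had their lowest mean in CD4IKK1Δ libraries. Cd68 (16.1, 19.9 and 11.1 CPM) had its highest mean there. The sums of 6 innate lymphoid and NK markers ran from 161 to 415, from 20 to 114 and from 598 to 871 CPM, with Ncr1 at or under the floor in 9 libraries. Most of them came from Il7r (means of 155, 24.1 and 360 CPM), Rora (67.1, 28.5 and 228 CPM) and Gata3 (35.9, 8.47 and 136 CPM). Rora and Gata3 are also in the wider Treg set below, so that these sums do not tell such cells from CD4+ T cells. The 6 endothelial markers gave 86 to 97.4, 83.1 to 107 and 58.5 to 78.1 CPM, with Cdh5 at or under the floor in 10 libraries and Tek in 9. Most of these sums came from Egfl7 (means of 72.8, 85.4 and 34.4 CPM), while Pecam1 (13.5, 10.1 and 33.5 CPM) was highest in CD4NIKΔ libraries. The 6 kidney tubule markers gave 13.5 to 64.5, 2.41 to 8.5 and 8.01 to 62.9 CPM. The 2 CD8 T cell markers summed to 3.16 to 16.5, 0.0524 to 2.93 and 13.5 to 25.7 CPM, lowest in the CD4IKK1Δ libraries as the members were. The 4 platelet markers gave 9.1 to 20.3, 2.72 to 9.27 and 6.64 to 10 CPM, with Gp9 at or under the floor in 9 libraries. The part of these cells in the results below was not tested. Chuk was at 16.6, 33.3 and 16.3 CPM in CD4cre, at 16.7, 21.3, 22.3, 15.3 and 26.5 CPM in CD4IKK1Δ and at 23.1, 39.7 and 37.4 CPM in CD4NIKΔ libraries, and Map3k14 at 19.5, 19.6 and 14.8, at 1.88, 4.92, 6.17, 9.25 and 7.67, and at 12.8, 30.8 and 23.8 CPM. Neither targeted gene followed the labels, with Map3k14 lowest in the libraries labelled CD4IKK1Δ, so that each group is named by its label only and every direction below is one between labelled groups. The counts are summed over whole genes and do not show the floxed exons.

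**Figure D1:**
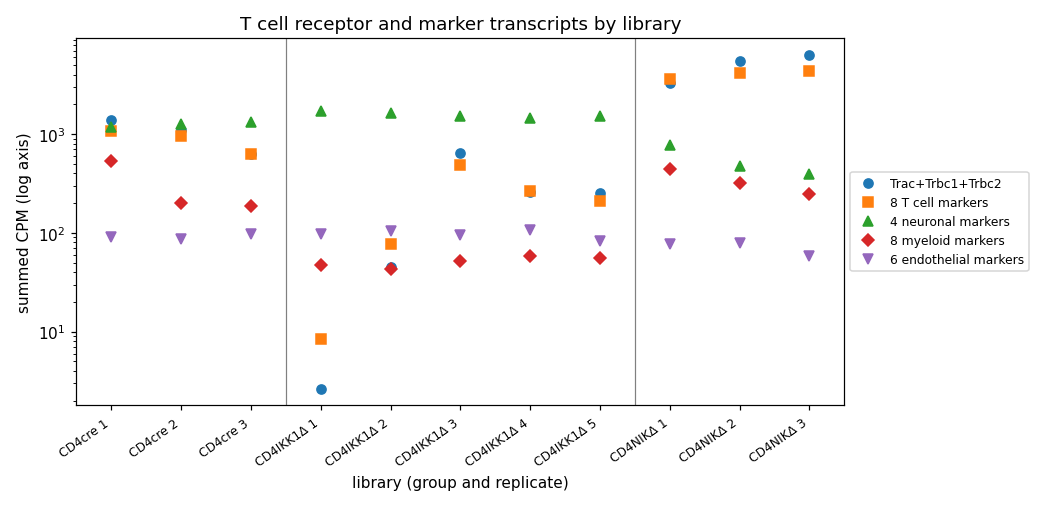
Summed CPM (log axis) of the TCR constant regions and of 4 marker lists in each of the 11 libraries, 1 point per list and library, with grey lines between CD4cre, CD4IKK1Δ and CD4NIKΔ mice. The TCR sum ran from 2.65 to 6380 CPM, lowest in CD4IKK1Δ replicate 1 and highest in CD4NIKΔ replicate 3, while the neuronal sum was lowest in the CD4NIKΔ libraries.

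The members lie on 5 chromosomes of GRCm39, and 2 pairs are neighbours. Ctla4 (chr1:60926159-60954991) and Icos (chr1:61017086-61039479) are 62.1 kb apart, and Tnfrsf4 (chr4:156098293-156101069) and Tnfrsf18 (chr4:156110621-156113352) are 9.55 kb apart. The others are Ikzf2 (chr1:69570373-69727004, minus strand), Il10 (chr1:130947581-130952711), Il2ra (chr2:11647618-11698004), Lrrc32 (chr7:98138490-98151388) and Foxp3 (chrX:7439883-7461484), all on the plus strand where not stated. RefSeq promoter windows of the older build GRCm38.p6 were matched by symbol for 5 members (Foxp3 with 2 start sites, Il2ra, Ctla4, Tnfrsf18 and Tnfrsf4), and not for Ikzf2, Icos, Il10 and Lrrc32. The 250 bases before each of the 6 starts were searched on both strands for 6 motifs, which were the κB consensus, the STAT motif TTCNNNGAA, the AP-1 motif TGANTCA, the forkhead motif TGTTTAC, the ETS motif CAGGAAG and the CRE motif TGACGTCA. The Il2ra window held 2 overlapping κB matches between bases -201 and -191 from the start site, and 7.25% of the 32851 windows of this length held a κB match. The STAT motif was found in the Tnfrsf18 window from -99 to -91 and before the start of Foxp3 at the higher coordinate from -139 to -131, against 7.02% of all windows. The AP-1 (6.75% of windows), forkhead (3.17%), ETS (10.8%) and CRE (1.55%) motifs had no match in the 6 windows. The 3 windows with a match are shown 5′ to 3′ with the matched bases in capitals, since NF-κB and, downstream of the IL-2 receptor, STAT5 are the factors that the targeted kinases and Il2ra are known for. A match describes the letters and not binding.
Il2ra chr2:11642542-11642791 (+ strand): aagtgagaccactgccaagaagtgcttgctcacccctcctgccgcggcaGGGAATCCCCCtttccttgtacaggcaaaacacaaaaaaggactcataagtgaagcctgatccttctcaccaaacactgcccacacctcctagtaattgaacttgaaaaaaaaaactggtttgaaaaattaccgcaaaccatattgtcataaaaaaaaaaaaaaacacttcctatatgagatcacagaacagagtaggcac
Tnfrsf18 chr4:156026072-156026321 (+ strand): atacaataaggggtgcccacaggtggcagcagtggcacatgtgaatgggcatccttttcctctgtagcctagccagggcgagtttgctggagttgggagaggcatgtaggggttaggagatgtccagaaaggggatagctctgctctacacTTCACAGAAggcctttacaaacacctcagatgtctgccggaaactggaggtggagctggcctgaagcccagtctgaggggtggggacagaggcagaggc
Foxp3 chrX:7580233-7580482 (+ strand): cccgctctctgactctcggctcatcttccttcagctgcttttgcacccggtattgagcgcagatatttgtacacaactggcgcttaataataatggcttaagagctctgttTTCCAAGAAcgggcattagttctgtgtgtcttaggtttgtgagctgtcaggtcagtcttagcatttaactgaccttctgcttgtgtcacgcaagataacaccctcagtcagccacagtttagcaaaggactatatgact

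CD4IKK1Δ mice were compared with CD4cre mice to ask whether the Treg genes differ in mice labelled IKK1 knockout. On the CPM scale all 9 members had a negative log2 fold change, from -0.86 for Ikzf2 to -3.64 for Il2ra, with a median of -2.65 against 0.02 over all 15653 genes tested. The CPM of 8 members, all except Ikzf2, lay below every CD4cre library in all 5 CD4IKK1Δ libraries, as was the case for 8.44% of all genes tested. By edgeR's quasi-likelihood test with Benjamini-Hochberg adjustment (FDR) no member met the threshold (FDR under 0.05 together with over 2-fold), and neither did any other gene, so that the shares called lower and higher were 0% and 0%. The smallest FDR of any gene was 0.0543, 2592 genes had an unadjusted p under 0.05, and 5 of the 9 members were among them. DESeq2 called 3 members lower, Foxp3, Il2ra and Tnfrsf18, where it called 4.46% of genes lower. Without replicates 1 and 2 the median of the members was -1.92, 7 of 9 had an unadjusted p under 0.05 and none was called by edgeR, where 2059 of 15091 genes had such a p and 36 were called lower. Scaled to the TCR counts in edgeR, 6 of the 9 differences were positive with a median of 0.57, but the median over all genes moved to 6.16 on the log2 scale, and 0% of genes were called higher. This scaling leaned on replicate 1, without which the median over all genes was 2.84 and Il2ra went from 2.92 to -1.96. In the mean log2 ratio per library, 7 of the 9 members were negative.

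CD4NIKΔ mice were compared with CD4cre mice for the same question on mice labelled NIK knockout. On the CPM scale 6 members rose, namely Ikzf2 (log2 fold change 2.65), Ctla4 (2.59), Icos (2.27), Tnfrsf4 (1.86), Il2ra (1.33) and Tnfrsf18 (1.24), and none was called lower, while scaled to the TCR counts none was called and the differences of all but Ctla4 were at or under 0. On the CPM scale edgeR called 10.4% of all genes higher and 6.99% lower. With TCR scaling it called 0.552% higher and 68.7% lower, and the median over all genes was -2.33. These 6 also lay above every CD4cre library in every CD4NIKΔ library, as did 22.9% of all genes. The median of the members was 1.53 against -0.02 over all 15209 genes tested. DESeq2 called 8 members higher, all but Lrrc32, against 13.1% of genes. When the spread was estimated from all 11 libraries, Ikzf2 alone stayed past the threshold and the other 5 had FDRs between 0.116 and 0.362. In that fit 865 of 16546 genes were called higher. Without CD4cre replicate 2, CD4NIKΔ replicate 2 or CD4NIKΔ replicate 3 the number of members called was 3. In these fits 884 of 15909, 852 of 15979 and 614 of 16162 genes were called higher, against 1586 of 15209 in the main fit. Without CD4NIKΔ replicate 1 the number of members called was 8, where 1695 of 16090 genes were called higher. Of the 8 T cell markers 7 were also called higher in CD4NIKΔ mice, and of the 4 neuronal markers 4 were called lower.

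The direct comparison of CD4IKK1Δ with CD4NIKΔ mice tests whether the differences of the genotypes from CD4cre mice, which share the CD4cre libraries, differ from each other. On the CPM scale all 9 members were called lower in CD4IKK1Δ mice by edgeR, with log2 fold changes from -3.39 for Tnfrsf18 to -5.61 for Ctla4 and a median of -4.06 against 0.06 over all 16546 genes. edgeR called 18.5% of genes lower and 14.8% higher, and DESeq2 called the same 9 lower against 20.4% of genes. The CPM of 8 members, all except Lrrc32, did not overlap between the groups, as for 24.4% of genes. All 9 were also called without CD4IKK1Δ replicates 1 and 2, where 2770 of 16190 genes were called lower. Of the T cell markers 8 of 8 were called lower in the same comparison, and of the neuronal markers 4 of 4 higher. Scaled to the TCR counts, 7 of the 9 differences turned positive, and 1, Ikzf2, was called higher (log2 fold change 5.46, FDR 0.0276), whereas without CD4IKK1Δ replicate 1 none was called. With this scaling edgeR called 87.4% of all genes higher (84.3% without that library), and the medians over all genes were 8.44 and 5.14, so that the value of Ikzf2 lay below that of the median gene.

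**Figure D2:**
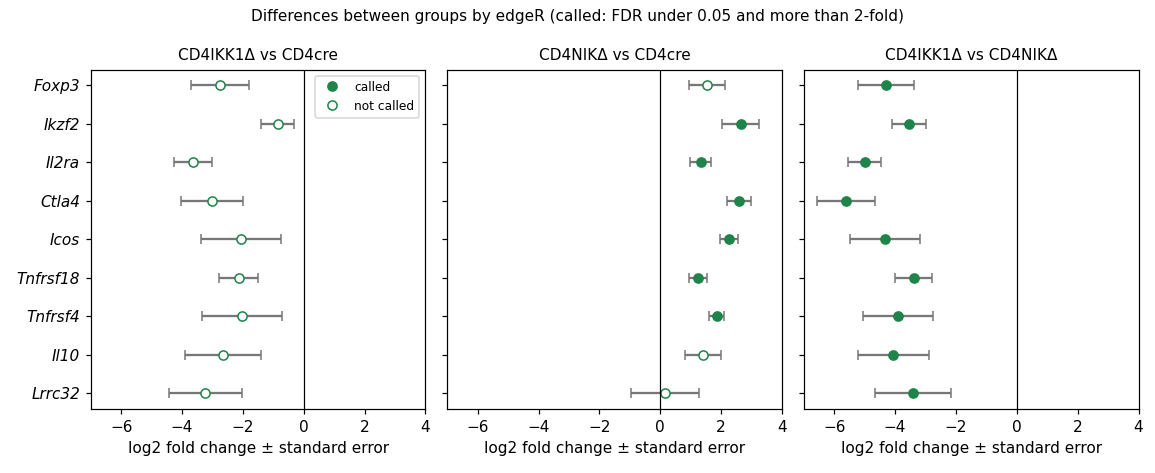
Log2 fold changes of the 9 members by edgeR on the CPM scale (points, with standard errors as bars) in the 3 comparisons, filled where the FDR was under 0.05 and the difference more than 2-fold. In CD4IKK1Δ against CD4cre mice 0 of 9 points are filled, in CD4NIKΔ against CD4cre mice 6, and in CD4IKK1Δ against CD4NIKΔ mice 9, while with scaling to the TCR counts, which moved the median of all genes to 6.16, -2.33 and 8.44, these numbers were 0, 0 and 1 and most directions turned.

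**Figure D3:**
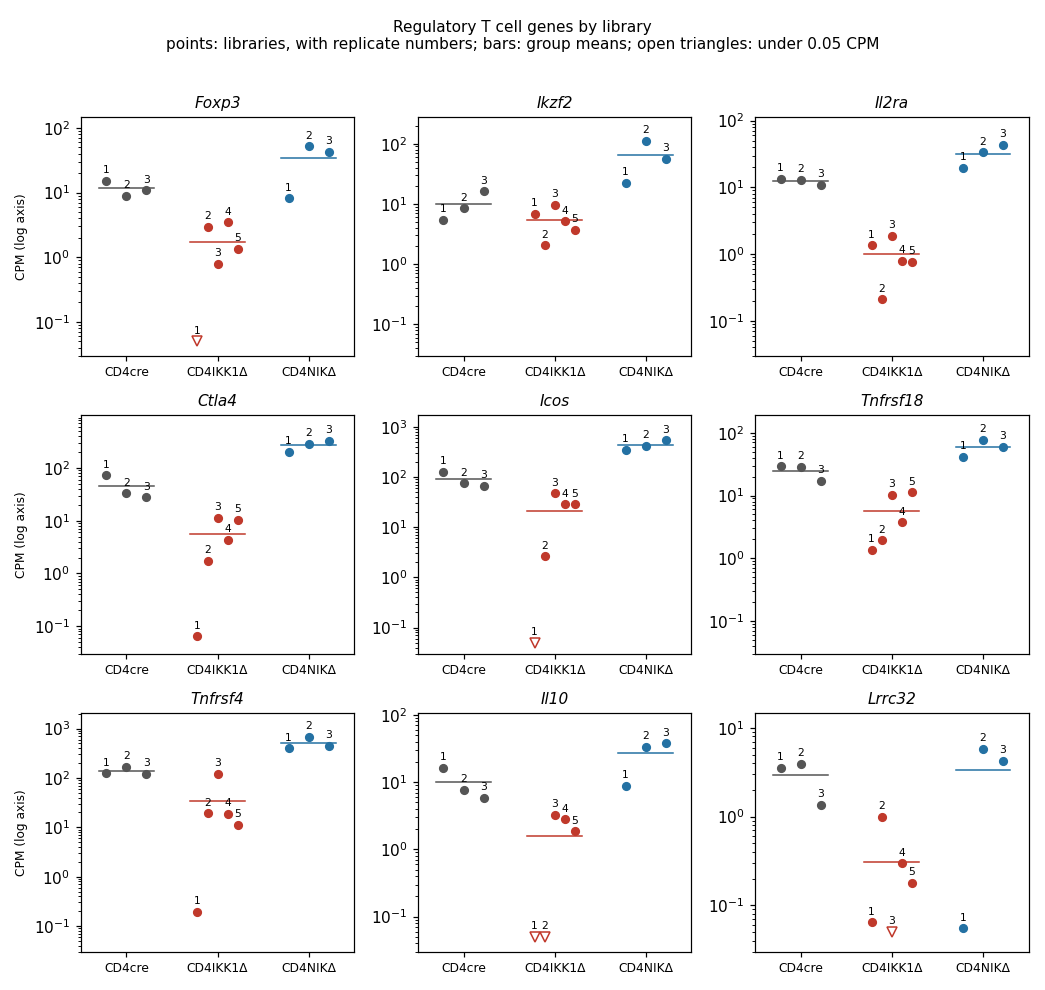
CPM (log axis) of each member in every library, numbered by replicate, with group means as bars and values under 0.05 CPM drawn as open triangles. On this scale the CD4IKK1Δ libraries lie below the CD4cre libraries for 8 members (8.44% of all genes) and the CD4NIKΔ libraries above them for 6 (22.9% of all genes), an order that scaling to the TCR counts did not keep.

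The lineage factor Foxp3 was at 15.2, 8.81 and 10.8 CPM in CD4cre libraries (11.6 ± 3.25, SD, n = 3), at 0, 2.93, 0.792, 3.48 and 1.35 CPM in CD4IKK1Δ libraries (1.71 ± 1.46, n = 5) and at 8.12, 51.7 and 42.7 CPM in CD4NIKΔ libraries (34.2 ± 23, n = 3). All 5 CD4IKK1Δ libraries lay below all 6 others, whereas CD4NIKΔ replicate 1 lay below the CD4cre libraries and the other two far above them. Against CD4cre it differed by -2.75 on the log2 scale (standard error 0.94, FDR 0.189 by edgeR and 0.0323 by DESeq2) in CD4IKK1Δ and 1.53 (standard error 0.59, FDR 0.0966 by edgeR and 0.0253 by DESeq2) in CD4NIKΔ mice. Between CD4IKK1Δ and CD4NIKΔ mice it was -4.30 (standard error 0.91, FDR 0.00294 by edgeR). Without CD4NIKΔ replicate 1, Foxp3 was called higher than in CD4cre mice, with a log2 fold change of 2.03 and an edgeR FDR of 0.00473. Per 1000 TCR counts, Foxp3 had 11, 7.95 and 17.1 counts in CD4cre, 0, 64.5, 1.23, 13.3 and 5.26 in CD4IKK1Δ, and 2.45, 9.41 and 6.7 in CD4NIKΔ libraries. The groups overlapped on this scale, and the 64.5 of CD4IKK1Δ replicate 2 stood for 56 Foxp3 counts over 868 TCR counts.

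Ikzf2 was at 5.5, 8.42 and 16.1 CPM in CD4cre, at 6.92, 2.04, 9.56, 5.17 and 3.74 CPM in CD4IKK1Δ and at 22.6, 113 and 56.2 CPM in CD4NIKΔ libraries. It was the only member whose CD4cre and CD4IKK1Δ values overlapped on the CPM scale, and every CD4NIKΔ library was above all others. In log2 fold change it differed by -0.86 (standard error 0.55, FDR 0.48 by edgeR) in CD4IKK1Δ and 2.65 (standard error 0.61, FDR 0.0233 by edgeR) in CD4NIKΔ against CD4cre mice, and -3.54 (standard error 0.56, FDR 0.000442 by edgeR) between them. The rise in CD4NIKΔ mice, absent with TCR scaling (-0.03), was kept in 2 of 6 fits without single libraries and lost without CD4cre replicates 1 or 2 (FDR 0.0503 and 0.0725 by edgeR) and CD4NIKΔ replicates 2 or 3 (FDR 0.0857 and 0.0688). In CD4IKK1Δ replicate 1, the library with 41 TCR counts, Ikzf2 still had 107 counts and Foxp3 had 0. Per 1000 TCR counts this gave 2610, against 14.7 to 44.9 in the other 4 CD4IKK1Δ libraries, 4 to 25.5 in CD4cre and 6.82 to 20.5 in CD4NIKΔ libraries.

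Il2ra, the high-affinity chain of the IL-2 receptor, was at 13.5, 13 and 11 CPM in CD4cre (12.5 ± 1.33, SD, n = 3), at 1.36, 0.21, 1.87, 0.796 and 0.767 CPM in CD4IKK1Δ (1 ± 0.633, n = 5) and at 19.4, 33.3 and 43.1 CPM in CD4NIKΔ libraries (31.9 ± 11.9, n = 3). The 3 groups did not overlap. CD4IKK1Δ differed from CD4cre mice by -3.64 on the log2 scale (standard error 0.62), the largest of the 9 values of that comparison, with an FDR of 0.0551 by edgeR and 7.21e-07 by DESeq2. It passed the threshold in edgeR with a filter of 1 count in any library (FDR 0.0255) and with the spread of all 11 libraries (FDR 0.0168). In CD4NIKΔ mice it was 1.33 (standard error 0.34, FDR 0.0297 by edgeR), and between CD4IKK1Δ and CD4NIKΔ mice -5.00 (standard error 0.54, FDR 7.4e-05 by edgeR). The call in CD4NIKΔ against CD4cre mice, turned to -1.06 by TCR scaling, was kept in 1 of 6 fits without single libraries. That was the fit without CD4NIKΔ replicate 1 (FDR 0.00697 by edgeR), and the FDRs of the other 5 were 0.0551, 0.0773 and 0.0937 without CD4cre replicates 1, 2 and 3, and 0.0942 and 0.118 without CD4NIKΔ replicates 2 and 3. The κB matches of the Il2ra window are printed above.

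Relative to the TCR, Il2ra had 9.8, 11.8 and 17.4 counts per 1000 TCR counts in CD4cre, 514, 4.64, 2.86, 3.08 and 3.04 in CD4IKK1Δ and 5.85, 6.06 and 6.76 in CD4NIKΔ libraries. The CD4IKK1Δ libraries overlapped with both other groups through replicate 1 alone, and replicates 2 to 5 lay below every CD4cre and CD4NIKΔ library. Replicates 2 to 5 held only 4 to 33 Il2ra counts each, and the ratio of replicate 1 stood for 21 Il2ra counts over 41 TCR counts. With replicate 1 included, the mean log2 ratio differed by -0.40 between CD4IKK1Δ and CD4cre mice (exact permutation test, two-sided, p = 0.964, 9 such tests per comparison, not adjusted). With TCR scaling and without CD4IKK1Δ replicate 1, edgeR gave -1.96 (standard error 1.47, FDR 0.226), which did not pass the threshold. CD4NIKΔ libraries lay below all CD4cre libraries, with a difference of -1.02 and an exact p of 0.1, the smallest that 3 against 3 libraries allow. Of all genes, 72.7% lay lower in this way in CD4NIKΔ than in CD4cre libraries.

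Of the CD28 family receptors, the inhibitory Ctla4 was at 72.5, 33.2 and 27.9 CPM in CD4cre, at 0.0647, 1.73, 11.2, 4.28 and 10.4 CPM in CD4IKK1Δ and at 203, 284 and 326 CPM in CD4NIKΔ libraries. Its neighbour Icos, a costimulatory receptor, was at 126, 74.2 and 67 CPM, at 0, 2.62, 47.5, 28.3 and 28.5 CPM, and at 345, 417 and 534 CPM. For both genes the 3 groups were apart on the CPM scale, with CD4IKK1Δ replicates 1 and 2 lowest of all. Against CD4cre, the log2 fold changes in CD4IKK1Δ mice were -3.01 for Ctla4 (standard error 1.02, FDR 0.21 by edgeR) and -2.05 for Icos (standard error 1.32, FDR 0.508 by edgeR). In CD4NIKΔ mice Ctla4 rose by 2.59 (standard error 0.38, FDR 0.00599 by edgeR) and Icos by 2.27 (standard error 0.29, FDR 0.00405 by edgeR) on the log2 scale, and with TCR scaling these were 0.37 and 0. Both were called when any 1 library was left out. Between CD4IKK1Δ and CD4NIKΔ mice they were -5.61 for Ctla4 (standard error 0.96, FDR 0.0014 by edgeR) and -4.33 for Icos (standard error 1.16, FDR 0.014 by edgeR).

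Relative to the TCR counts, Icos varied least among the members over the 10 libraries without CD4IKK1Δ replicate 1. It had 91.1, 67 and 106 counts per 1000 TCR counts in CD4cre, 57.6, 73.6, 108 and 112 in CD4IKK1Δ replicates 2 to 5 and 104, 75.9 and 83.7 in CD4NIKΔ libraries. Over these 10 libraries the highest ratio was 1.95 times the lowest, while the CPM differed 204-fold and the TCR sum 140-fold. The lowest values of all 3 were those of CD4IKK1Δ replicate 2, and over the 9 libraries without it the ratio differed 1.67-fold, the CPM 18.9-fold and the TCR sum 25.1-fold. In CD4IKK1Δ replicate 1 Icos had 0 counts over 41 TCR counts. Ctla4 had 52.6, 30 and 44.4 counts per 1000 TCR counts in CD4cre, 24.4, 38, 17.3, 16.3 and 40.8 in CD4IKK1Δ, and 61, 51.7 and 51.1 in CD4NIKΔ libraries, a 3.74-fold range over all 11. The CD4IKK1Δ libraries lay below the CD4NIKΔ libraries, as 0.846% of all genes did. The difference in the mean log2 ratio was -0.97 (exact permutation test, two-sided, p = 0.0714, where 0.0179 is the smallest p possible), and with Trac counts alone it was 0.18. The other members ranged over the 10 libraries by 4.66 times for Tnfrsf18, 6.09 times for Il2ra, 9.6 times for Tnfrsf4, 11.2 times for Ikzf2 and 52.6 times for Foxp3, and Il10 and Lrrc32 had a library at 0 among them. CD4IKK1Δ replicate 2, with 868 TCR counts, held the highest ratio of Foxp3, Tnfrsf4 and Ikzf2, and without it their ranges were 14, 4.43 and 6.38 times, those of Tnfrsf18 and Il2ra were as given, and that of Il10 was 4.47 times.

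The TNF receptor family members signal to NF-κB on binding their ligands. Tnfrsf18 (GITR) was at 29.3, 28.4 and 17 CPM in CD4cre, at 1.36, 1.94, 10.2, 3.73 and 11.2 CPM in CD4IKK1Δ and at 41, 77.8 and 60.3 CPM in CD4NIKΔ libraries. Tnfrsf4 (OX40) was at 125, 167 and 123 CPM, at 0.194, 19.2, 121, 19 and 11.2 CPM, and at 399, 681 and 451 CPM. The 3 groups did not overlap for either gene on the CPM scale, but the 121 CPM of Tnfrsf4 in CD4IKK1Δ replicate 3 was close to the 123 CPM of the lowest CD4cre library and stood apart from the other 4 CD4IKK1Δ libraries. Against CD4cre, the log2 fold changes in CD4IKK1Δ mice were -2.13 for Tnfrsf18 (standard error 0.64, FDR 0.154 by edgeR and 0.0181 by DESeq2) and -2.02 for Tnfrsf4 (standard error 1.31, FDR 0.515 by edgeR). In CD4NIKΔ mice Tnfrsf4 rose by 1.86 (standard error 0.25, FDR 0.00461 by edgeR) and Tnfrsf18 by 1.24 (standard error 0.31, FDR 0.029 by edgeR) on the log2 scale, and with TCR scaling these turned to -0.47 and -1.04. Tnfrsf4 was called when any 1 library was left out, and Tnfrsf18 in 2 of 6 such fits, with FDRs of 0.0678, 0.0881, 0.106 and 0.0895 by edgeR without CD4cre replicates 2 or 3 and CD4NIKΔ replicates 2 or 3. Between CD4IKK1Δ and CD4NIKΔ mice the values were -3.39 for Tnfrsf18 (standard error 0.61, FDR 0.001 by edgeR) and -3.90 for Tnfrsf4 (standard error 1.15, FDR 0.0221 by edgeR), the latter lost without CD4NIKΔ replicate 2 (FDR 0.0647) or 3 (FDR 0.0577).

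Per 1000 TCR counts, Tnfrsf18 was at 21.3, 25.6 and 26.9 in CD4cre and at 12.3, 14.2 and 9.45 in CD4NIKΔ libraries, which did not overlap, with a difference in the mean log2 ratio of -1.05 and an exact permutation p of 0.1, the smallest possible. The CD4IKK1Δ libraries, at 505, 42.7, 15.8, 14.2 and 44, overlapped with the CD4cre libraries and lay above the CD4NIKΔ libraries, where the nearest values of the 2 groups both round to 14.2 and 72.0% of all genes lay higher in this way (exact permutation p = 0.143). Tnfrsf4 was at 90.9, 151 and 195 in CD4cre, at 73.2, 422, 188, 72.6 and 43.9 in CD4IKK1Δ and at 120, 124 and 70.7 in CD4NIKΔ libraries, and all groups overlapped.

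The suppressive cytokine Il10 was at 16.5, 7.69 and 5.82 CPM in CD4cre, at 0, 0, 3.28, 2.79 and 1.85 CPM in CD4IKK1Δ and at 8.89, 33.2 and 38 CPM in CD4NIKΔ libraries. CD4IKK1Δ libraries lay below all others, and those with 0 counts were the 2 with the fewest TCR counts. In log2 fold change it differed by -2.65 (standard error 1.25, FDR 0.325 by edgeR) in CD4IKK1Δ and 1.40 (standard error 0.59, FDR 0.122 by edgeR and 0.044 by DESeq2) in CD4NIKΔ against CD4cre mice, and -4.06 (standard error 1.16, FDR 0.0157 by edgeR) between them. Without CD4NIKΔ replicate 1 it was called higher than in CD4cre mice (1.83, FDR 0.0259 by edgeR). Per 1000 TCR counts Il10 was at 12, 6.95 and 9.24 in CD4cre, at 0, 0, 5.08, 10.6 and 7.26 in CD4IKK1Δ and at 2.68, 6.05 and 5.96 in CD4NIKΔ libraries. The CD4NIKΔ ratios were thus all below the CD4cre ratios (difference -1.0, exact permutation p = 0.1, the smallest possible), opposite to the order of the CPM means. The call between the genotypes was lost without CD4NIKΔ replicate 3 (FDR 0.0565 by edgeR).

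Lrrc32, which encodes the surface anchor of latent TGF-β, was the member of lowest level. It was at 3.54, 3.94 and 1.35 CPM in CD4cre, at 0.0647, 0.995, 0, 0.298 and 0.18 CPM in CD4IKK1Δ and at 0.0552, 5.76 and 4.24 CPM in CD4NIKΔ libraries. CD4NIKΔ replicate 1 had 1 count of Lrrc32, as had CD4IKK1Δ replicate 1, although it held 60124 TCR counts. The log2 fold changes against CD4cre were -3.23 (standard error 1.19, FDR 0.218 by edgeR) in CD4IKK1Δ and 0.16 (standard error 1.12, FDR 0.934 by edgeR) in CD4NIKΔ mice, and the latter changed sign with single libraries left out. Between CD4IKK1Δ and CD4NIKΔ mice it was -3.41 (standard error 1.25, FDR 0.0432 by edgeR), the weakest of the 9 calls, which was kept in 2 of 8 fits that each left out 1 library. It was lost without CD4IKK1Δ replicates 1, 3, 4 or 5 and without CD4NIKΔ replicates 2 or 3, with FDRs of 0.0794, 0.0596, 0.0717, 0.0786, 0.162 and 0.11 by edgeR. It was also lost when the fit held only the 8 libraries of the 2 groups (FDR 0.0702 by edgeR). In that fit the other 8 members were called lower, as were 2913 of 15759 genes in all. Per 1000 TCR counts Lrrc32 was at 2.57, 3.56 and 2.15 in CD4cre, at 24.6, 21.9, 0, 1.14 and 0.709 in CD4IKK1Δ and at 0.0166, 1.05 and 0.664 in CD4NIKΔ libraries, so that the CD4NIKΔ libraries were below the CD4cre libraries (difference -3.39, exact permutation p = 0.1).

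Over the 9 members, 0 had ratios to the TCR counts that were all lower (0.192% of all genes) and 0 had ratios that were all higher (33.4% of all genes) in CD4IKK1Δ than in CD4cre libraries. The smallest exact permutation p of that comparison was 0.232, for Ctla4. In CD4NIKΔ against CD4cre libraries the ratios of 4 members, Il2ra, Tnfrsf18, Il10 and Lrrc32, were all lower, against the 72.7% of genes given above. Between CD4IKK1Δ and CD4NIKΔ libraries the smallest exact permutation p was 0.0714, for Ctla4. In CD4IKK1Δ replicate 1, 3 members were above the floor of 3 counts, Ikzf2 with 107, Il2ra with 21 and Tnfrsf18 with 21 counts, and 6 were at or under it. The same library had 41 TCR counts and a neuronal marker sum at the top of the range of all libraries.

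**Figure D4:**
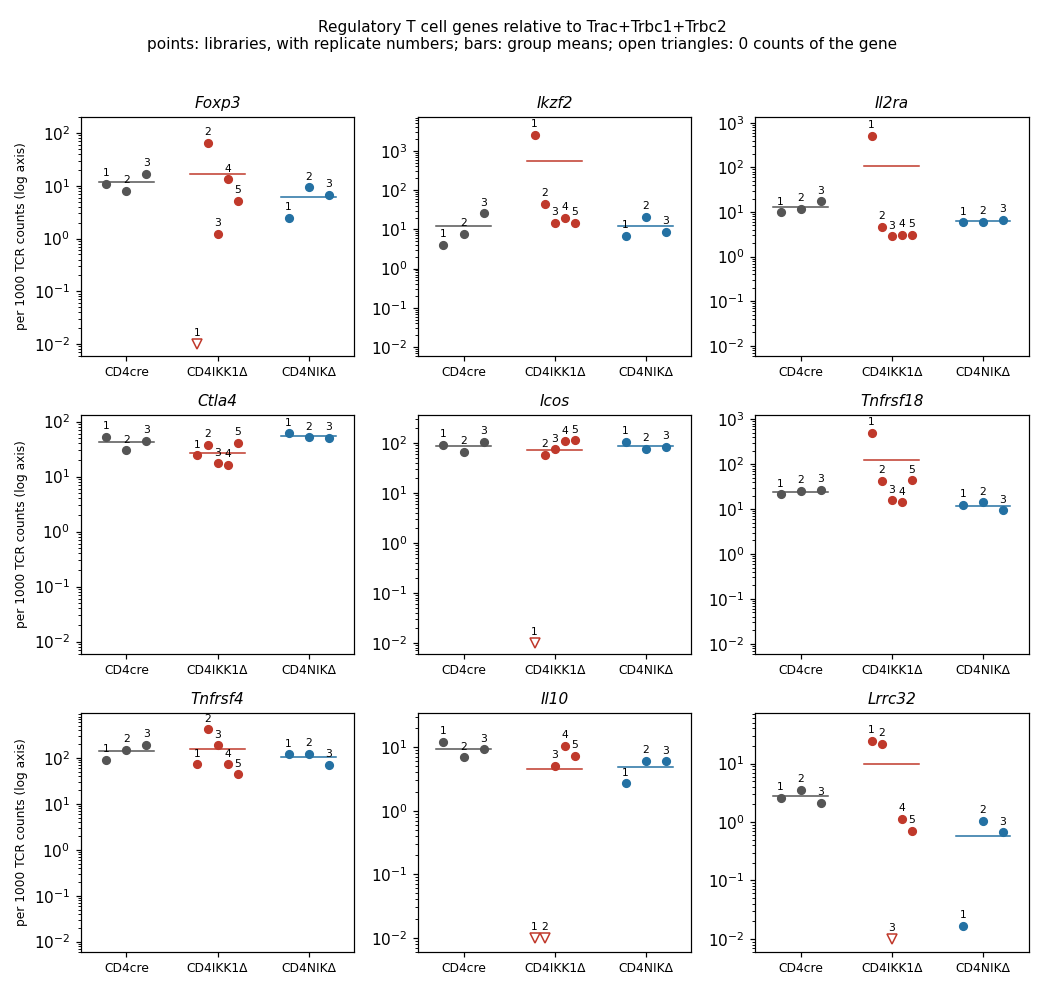
Counts of each member per 1000 TCR counts (log axis) in every library, numbered by replicate, with group means as bars and libraries with 0 counts of the gene as open triangles. Icos lies between 57.6 and 112 in 10 libraries, and Il2ra in CD4IKK1Δ replicates 2 to 5 between 2.86 and 4.64, while replicate 1, with 41 TCR counts, is at 514.

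Compared per kilobase of the annotated canonical transcript, Tnfrsf4 had the highest mean level of the 9 in every group, with 133 CPM per kb in CD4cre, 33 in CD4IKK1Δ and 492 in CD4NIKΔ mice. In CD4cre mice Icos (27.4 CPM per kb), Ctla4 (23) and Tnfrsf18 (19.8) followed, and their ranges overlapped. Il10 came next (7.63), then Foxp3 (3.07) and Il2ra (2.83), which overlapped with each other. Ikzf2 (1.06) and Lrrc32 (0.644) were lowest, with overlapping ranges. In CD4NIKΔ mice Ctla4 (140 CPM per kb) and Icos (133) overlapped, as did Foxp3 (9.06), Il2ra (7.24) and Ikzf2 (6.79), and Lrrc32 (0.732) lay below all of them. In CD4IKK1Δ mice the order was Tnfrsf4, Icos (6.6), Tnfrsf18 (4.53), Ctla4 (2.86), Il10 (1.21), Ikzf2 (0.583), Foxp3 (0.454), Il2ra (0.227) and Lrrc32 (0.0673), with wide overlap between neighbours.

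Across the 11 libraries the log2 CPM of Ctla4 and Icos (Pearson's r 0.97) and of Ctla4 and Tnfrsf18 (0.97) were most alike among the members, and those of Ikzf2 and Lrrc32 least (0.4). Foxp3 had its highest r with Ctla4 (0.89) and its lowest with Ikzf2 (0.62). These values describe points that share the library, its TCR level and the differences between the groups. Among the 15172 genes compared, excluding the members, the pattern nearest to Foxp3 was that of Kmt5b (r = 0.976), followed by Kctd2 and Osgin1 (both 0.961). For Il2ra it was Tnfrsf26 and Stap1 (both 0.972), then Nde1 (0.968), and for Ikzf2 Hpn (0.944), H3c11 (0.94) and Cep120 (0.938). Ctla4 was nearest to Ifi47 (0.998), Sting1 and Dusp5 (both 0.994), and Icos to Akna (0.998), Bcl2a1b (0.997) and Lat (0.996). Tnfrsf18 was nearest to Trbv31 (0.992), Bag3 (0.985) and Rela (0.984), and Tnfrsf4 to Sit1 (0.995), Gna15 (0.992) and Ptprcap (0.987). Il10 was nearest to Gpr132 (0.983), Batf (0.98) and Csrnp1 (0.979), and Lrrc32 to Gsta2 (0.966), Krt7 (0.939) and Lyst (0.927).

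The wider set of 75 genes of Treg biology was counted in 5 role groups with edgeR's calls on the CPM scale. In CD4IKK1Δ against CD4cre mice 0 of 69 tested genes were called in either direction (16 lower by DESeq2), and the median log2 fold change was -1.80, whereas with TCR scaling it was 2.20 (0.69 without CD4IKK1Δ replicate 1) and 0 were called. Over all genes the median was 0.02 on the CPM scale and 6.16 with TCR scaling (2.84 without that library), and DESeq2 called 4.46% lower. In CD4NIKΔ against CD4cre mice 38 of 72 tested genes rose and 0 fell, with a median of 1.60, whereas with TCR scaling 2 were called higher and 11 lower with a median of -0.57. Over all genes edgeR called 10.4% higher and 6.99% lower on the CPM scale, and 0.552% higher and 68.7% lower with TCR scaling, where the median was -2.33. In CD4IKK1Δ against CD4NIKΔ mice 53 of 72 were lower and 2 higher, with a median of -3.19, whereas with TCR scaling 27 were called higher and 0 lower with a median of 2.36 (22 and 0 without CD4IKK1Δ replicate 1). Over all genes 18.5% were called lower and 14.8% higher on the CPM scale, and 87.4% higher with TCR scaling (84.3% without that library), with medians of 8.44 and 5.14. The values of the role groups below are therefore those of the CPM scale alone. In the last comparison the 2 exceptions were Penk, which encodes proenkephalin (1.21, FDR 0.00104 by edgeR), and the integrin chain Itgb8 (1.34, FDR 0.0203 by edgeR). The neuronal markers were higher in the same comparison, as given above, and the part of those cells was not tested.

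The counts of the role groups stand against 10.4% of all genes called higher in CD4NIKΔ against CD4cre mice and 18.5% called lower in CD4IKK1Δ against CD4NIKΔ mice by edgeR, and 4.46% called lower in CD4IKK1Δ against CD4cre mice by DESeq2. Among 23 transcription factors, 13 rose in CD4NIKΔ mice and 18 were lower in CD4IKK1Δ than in CD4NIKΔ mice. The largest differences were those of Lef1 (3.26 and -5.75 in the 2 comparisons), Ets1 (2.61 and -5.55) and Tcf7 (2.55 and -4.73), which are factors of T cell development and of naive and memory T cells rather than of Treg alone. Against CD4cre, DESeq2 called 5 of the 23 lower in CD4IKK1Δ mice, among them Ets1 (-2.95, adjusted p 0.00726 by DESeq2). Of the 9 genes of IL-2, its receptor chains and their signalling, 6 rose in CD4NIKΔ mice, with Il2 (3.96), the shared cytokine receptor chain Il2rg (3.01) and the kinase gene Jak3 (1.91) ahead. All 9 were lower in CD4IKK1Δ than in CD4NIKΔ mice, led by Il2 (-5.92), Il2rg (-5.09) and Il2rb (-4.23). Against CD4cre, DESeq2 called 5 of these 9 lower in CD4IKK1Δ mice, of which the STAT5 gene Stat5a (-2.48, adjusted p 0.000284 by DESeq2), the feedback inhibitor Socs1 (-2.41, adjusted p 0.0258 by DESeq2) and the STAT5 target Cish (-2.17, adjusted p 0.0482 by DESeq2) differed most. edgeR called none of the 9.

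Of 24 surface receptors, 22 were tested against CD4cre in CD4NIKΔ mice and 12 rose. Klrg1, a marker of differentiated effector cells and of some tissue Treg, had at most 3 counts in any CD4cre library and a mean of 35.6 CPM in CD4NIKΔ mice. The chemokine receptors Ccr6 (3.73) and Cxcr3 (3.40) came next. Against CD4NIKΔ mice, 17 of 22 were lower in CD4IKK1Δ mice, led by Pdcd1 (-6.02), Cxcr3 (-5.61) and the TNF receptor family member Tnfrsf9 (-5.46). Against CD4cre, DESeq2 called 4 of 20 lower in CD4IKK1Δ mice, of which the inhibitory receptor Pdcd1 (-4.08, adjusted p 0.0107 by DESeq2), the ectonucleotidase Entpd1 (-2.62, adjusted p 0.00342 by DESeq2) and Slamf6 (-2.40, adjusted p 0.008 by DESeq2) differed most. Of 9 suppressive and repair products, 6 rose in CD4NIKΔ mice, with galectin-1 (Lgals1, 3.03), Fgl2 (2.79) and granzyme B (Gzmb, 2.75) ahead. In CD4IKK1Δ against CD4NIKΔ mice 4 were lower, with Fgl2 (-5.79), Gzmb (-5.25) and Pdcd1lg2 (-4.27) ahead, and 1, Penk, was higher. Against CD4cre, DESeq2 called Fgl2 (-3.02, adjusted p 0.011 by DESeq2) and Pdcd1lg2 (-2.71, adjusted p 0.00964 by DESeq2) lower in CD4IKK1Δ mice.

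Some of the ligands and receptors of the members were at low levels. IL-2 itself was between 0.753 and 2.53 CPM in CD4cre, between 0 and 1.64 CPM in CD4IKK1Δ and between 11.3 and 35.9 CPM in CD4NIKΔ libraries, and rose in CD4NIKΔ mice (log2 fold change 3.96, standard error 0.62, FDR 0.00771 by edgeR). Cd80 and Cd86, the ligands of CTLA-4, were at most 3.53 and 3.46 CPM in any library. Cd86 was lower in CD4IKK1Δ than in CD4NIKΔ mice (-2.33, FDR 0.013 by edgeR). The ICOS ligand Icosl ran from 7.23 to 9.54, from 0.838 to 6.23 and from 15 to 17.1 CPM in CD4cre, CD4IKK1Δ and CD4NIKΔ libraries, which did not overlap, and the difference of the genotypes was -2.62 (FDR 0.00251 by edgeR). The OX40 ligand Tnfsf4 was at most 0.779, 1.19 and 11.1 CPM in the 3 groups (-4.53 between the genotypes, FDR 0.0485 by edgeR), and the GITR ligand Tnfsf18 did not exceed 0.607 CPM and was too low to be tested by edgeR, and DESeq2 gave it no adjusted p. The IL-10 receptor chain Il10ra ran from 15.3 to 27.3, from 0 to 6.66 and from 1.38 to 21.9 CPM, with log2 fold changes of -3.83 (FDR 0.252 by edgeR) and -1.09 (FDR 0.336 by edgeR) against CD4cre. Of 11 such genes tested, 2 rose in CD4NIKΔ against CD4cre mice, Il2 and the TGF-β receptor Tgfbr2 (2.07, FDR 0.0459 by edgeR), and 6 were lower in CD4IKK1Δ than in CD4NIKΔ mice, among them also Tgfbr2 (-4.08, FDR 0.00459 by edgeR) and the second IL-10 receptor chain Il10rb (-2.36, FDR 0.0199 by edgeR).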

How the data were processed

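Bulk RNA of sorted renal CD4+ T cells was measured in 3 CD4cre, 5 CD4IKK1Δ and 3 CD4NIKΔ mice, grouped by the genotype of the labels. The authors trimmed the paired reads of 150 nt with Trimmomatic (quality 30, at least 36 nt), quantified transcripts with kallisto against GRCm39, and deposited estimated counts per gene symbol without normalization. The notes with the samples name mm10 instead, the kallisto version is not given in the sources used here, and the deposited table carries no coordinates, so that those printed come from the GENCODE annotation of GRCm39. Between 35.3% and 41.8% of values per library were not whole, as kallisto splits ambiguous reads, and all were rounded. None of the 55 pairs of libraries was identical.

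Genes were filtered with filterByExpr, scaled by TMM and compared with the robust quasi-likelihood F test of edgeR (edgeR 4.0.16, limma 3.58.1, R 4.3.3), with Benjamini-Hochberg adjustment over all genes tested and a threshold of an FDR under 0.05 and more than 2-fold. Comparisons with CD4cre used their own libraries, and CD4IKK1Δ against CD4NIKΔ all 11. Standard errors come from the F statistic. Log2 ratios to TCR counts (0.5 added) were compared by exact two-sided permutation. The fits were tested on simulated data. The alternatives were DESeq2 (1.42.0), RLE factors, TCR scaling, a filter of 1 count, all or fewer libraries, a replicate block, no fold threshold, other T cell denominators, 1 count added and leaving out each library. The genes, lists and rules were chosen with earlier results of these data known. Named from the wider lists are the called genes with the 3 largest differences per group, called in edgeR or DESeq2, and the direct ligands and receptors of the members. For each member, the 3 genes with the highest Pearson's r of log2 CPM (prior count 2) are given, leaving out unnamed gene models. TCR scaling of the wider list was added after its counts were seen. Promoter bases come from RefSeq on GRCm38.p6, a different build from GRCm39. Replicates are labelled as biological. Reads and floxed exons were not analysed here. The values of 1 marker list are not reported here.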

Additional observations from a re-analysis of the deposited data

Results flagged for a closer look

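In the CD4IKK1Δ group, the only one with more than 3 libraries, some values stood apart from the other 4 libraries by their gap relative to the range of the group. Chance meets this criterion in about 1 in 20 groups of normally distributed values, and it was applied to every member on both scales. That rate need not hold for the ratios, whose TCR counts ran from 41 to 11413 in this group. Per 1000 TCR counts, Ikzf2 was at 2610, Il2ra at 514 and Tnfrsf18 at 505 in replicate 1, and Foxp3 at 64.5 in replicate 2, which are the libraries with 41 and 868 TCR counts. On the CPM scale, Tnfrsf4 in replicate 3 was at 121, and that library had the most TCR counts of the group (11413).

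The difference from CD4cre mice was not the same in the 2 genotypes for any member on the CPM scale, as tested directly by edgeR between CD4IKK1Δ and CD4NIKΔ mice with the CD4cre libraries shared by both. The differences were -4.30 for Foxp3, -3.54 for Ikzf2, -5.00 for Il2ra, -5.61 for Ctla4, -4.33 for Icos, -3.39 for Tnfrsf18, -3.90 for Tnfrsf4, -4.06 for Il10 and -3.41 for Lrrc32 on the log2 scale, with FDRs as given in the report. The TCR sum ran from 2.65 to 646 CPM in CD4IKK1Δ and from 3320 to 6380 CPM in CD4NIKΔ libraries, and its part in these differences was not tested beyond the scaling given below.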

How the results depend on the processing

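The number of members called in CD4IKK1Δ against CD4cre mice, 0 by edgeR, was 3 with DESeq2, and 1 (Il2ra) with a filter of 1 count in any library and 1 with all 11 libraries. In the same order, 0 of 15653, 502 of 11256, 48 of 23700 and 129 of 16546 genes were called lower. In CD4NIKΔ against CD4cre mice the 6 calls became 0 with TCR scaling, 1 with all 11 libraries and between 3 and 8 without single libraries. Genes called higher were 1586 of 15209 in the main fit, 84 of 15209 with TCR scaling and 865 of 16546 with all 11 libraries. Without single libraries they ran from 614 of 16162 to 1703 of 15934. In CD4IKK1Δ against CD4NIKΔ mice the 9 calls became 1 (Ikzf2, called higher) with TCR scaling, 0 with TCR scaling and without CD4IKK1Δ replicate 1, and between 6 and 9 without single libraries. Genes called lower were 3068 of 16546 in the main fit and from 2396 of 17495 to 3080 of 16325 without single libraries. With TCR scaling 14453 of 16546 genes were called higher, and 13785 of 16348 without CD4IKK1Δ replicate 1. RLE factors and the removal of the fold threshold left the counts of members called within 1.5 times. For the wider list, TCR scaling left 0 calls in CD4IKK1Δ against CD4cre mice. In CD4NIKΔ against CD4cre mice it gave 2 higher and 11 lower (0.552% and 68.7% of all genes) in place of 38 higher and 0 lower. In CD4IKK1Δ against CD4NIKΔ mice it gave 27 higher and 0 lower (87.4% of all genes higher) in place of 2 higher and 53 lower. The replicate numbers did not pair the libraries (correlations of deviations of equal numbers from -0.09 to 0.08). With the replicate block the numbers of members called were 0, 4 and 5, and Lrrc32 in CD4NIKΔ against CD4cre mice turned to -0.41. In these fits 3 of 15653 genes were called lower, 995 of 15209 higher and 2801 of 16546 lower.

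TCR scaling moved the median of all genes to 6.16, -2.33 and 8.44 in the 3 comparisons (2.84 and 5.14 in the first and last without CD4IKK1Δ replicate 1). In CD4IKK1Δ against CD4cre mice it turned Foxp3 to 0.57, Ikzf2 to 5.43, Il2ra to 2.92, Tnfrsf18 to 2.29, Tnfrsf4 to 0.14 and Lrrc32 to 1.45, and without CD4IKK1Δ replicate 1 Foxp3 to 0.78, Ikzf2 to 0.92, Tnfrsf18 to 0.24, Tnfrsf4 to 0.32 and Lrrc32 to 0.99. In CD4NIKΔ against CD4cre mice it turned Foxp3 to -0.96, Ikzf2 to -0.03, Il2ra to -1.06, Icos to 0, Tnfrsf18 to -1.04, Tnfrsf4 to -0.47, Il10 to -0.94 and Lrrc32 to -2.25. In CD4IKK1Δ against CD4NIKΔ mice it turned Foxp3 to 1.54, Ikzf2 to 5.46, Il2ra to 3.97, Tnfrsf18 to 3.32, Tnfrsf4 to 0.62, Il10 to 0.14 and Lrrc32 to 3.68, and without CD4IKK1Δ replicate 1 Foxp3 to 1.73, Ikzf2 to 0.95, Icos to 0, Tnfrsf18 to 1.28, Tnfrsf4 to 0.79, Il10 to 0.27 and Lrrc32 to 3.23. The cause of these turns was not tested.

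Lrrc32 in CD4NIKΔ against CD4cre mice ranged from -0.44 to 0.76 without single libraries. For the log2 ratios in CD4IKK1Δ against CD4cre mice, Trac counts alone, of which CD4IKK1Δ replicate 1 had 1, gave 0.38 for Foxp3, 0.27 for Il2ra, 0.1 for Ctla4, 0.09 for Icos, 0.43 for Tnfrsf4 and 0.26 for Lrrc32, and single libraries left out gave -0.99 to 0.43 for Foxp3, -1.85 to 0.02 for Il2ra, -0.71 to 0.1 for Tnfrsf4 and -1.46 to 0.97 for Lrrc32. In CD4NIKΔ against CD4cre mice, Trac alone gave -0.25 for Ikzf2, -0.07 for Ctla4 and -0.47 for Icos, and single libraries left out -0.38 to 0.96 for Ikzf2 and -0.18 to 0.16 for Icos. In CD4IKK1Δ against CD4NIKΔ mice, Trac alone gave 0.18 for Ctla4 and 0.55 for Icos, Cd3d, Cd3e and Cd3g counts gave -0.18 for Tnfrsf4 and -0.28 for Il10, and single libraries left out -0.83 to 1.05 for Il2ra, -0.27 to 0.55 for Tnfrsf4 and -0.29 to 0.87 for Il10. Adding 1 count in place of 0.5 changed no sign or call among the 27 ratios. With 41 and 868 TCR counts, replicates 1 and 2 labelled CD4IKK1Δ limit what the ratios can show.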
